A study of Homo sapiens with 12 samples.

Results

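Long intergenic noncoding RNAs carry the symbol LINC and a number in the human gene nomenclature. They are spliced or unspliced transcripts that lie between protein-coding genes and hold no long open reading frame. In the U937 table, 969 such symbols were present with 3924 transcripts, and 376 of these symbols had no read in any library. Each symbol was represented by its most abundant transcript, judged by the mean of the 12 libraries, and the 212 symbols whose mean normalized read count was at least 5 were selected on that mean. The whole table covers 44786 symbols and 197782 transcripts. Since the mean includes the treated libraries, 55 of the 212 members had a mean under 5 in untreated cells, 54 with ATRA, 6 with DAC and 4 with DAC+ATRA. A member that is low in untreated cells could be selected only through a higher level in another group, so its fold changes and p-values and the counts below are descriptions and support nothing beyond that. Just inside the threshold were LINC01163 with a mean of 5.36, LINC01193 with 5.35 and LINC01353 with 5.33. Just outside were LINC00348 with 4.97, LINC01257 with 4.96 and LINC01087 with 4.92.

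U937 is a human myelomonocytic cell line from the acute myeloid leukemia field, and RNA-seq was made from 12 libraries, 3 for each of 4 groups. The groups were untreated cells and cells given 200 nM DAC, 1 µM ATRA or both agents (DAC+ATRA), and the study asked how the agents act on the transcriptome alone and together. The labels give 3 days of treatment with daily DAC, culture with 20% FCS and 5 ng/ml GM-CSF, 72 h for the treated cells and 96 h for the untreated cells. A second description of the cultures places ATRA at the third dose of DAC, less FCS in the medium and one harvest time for all cultures, so exposure to ATRA may have been shorter than labelled. By the labels' times, length of culture and treatment cannot be told apart. The libraries of a group are described as technical triplicates, so the p-values measure only the spread between these libraries, which may be technical. The table names its columns by treatment and a running number, and libraries are named by that number here.

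DAC (decitabine) is a cytosine analogue that is built into DNA and traps DNA methyltransferases, which leaves newly copied strands unmethylated. ATRA (all-trans retinoic acid) activates retinoic acid receptors, which bind DNA and switch on genes of myeloid maturation. Many long noncoding RNAs are transcribed in few cell types, some act in the nucleus on nearby genes, some act in the cytoplasm as binding platforms for proteins, and a few LINC symbols were later found to encode small proteins.

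The values are read counts per transcript that the authors divided by a size factor for each library, called normalized reads here. The reads behind them ran from 8042435 in DAC+ATRA library 12 to 10683593 in DAC+ATRA library 10. Medians were 9813352 reads in untreated, 9583119 in DAC, 10470624 in ATRA and 9935892 in DAC+ATRA libraries. In single libraries the members took between 0.213% and 0.284% of the reads. Depending on the library, 3 reads are worth 2.5 to 3.71 normalized reads. A transcript with at most 3 reads in every library of a group is called off there. This limit covers counting error only, since PCR reads without molecular identifiers are not independent molecules. A transcript with at least 10 normalized reads in every library of a group is called on. Within the groups no library was a copy of another: the chi-square of replicate pairs, divided by its degrees of freedom, was lowest for untreated libraries 2 and 3 (2.14) and highest for ATRA libraries 8 and 9 (8.94).

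Of the 212 members, 207 were matched by transcript identifier in GENCODE 44 on hg38. Their median length was 1999 bases with 3 exons, and 25 had a single exon. In this release 39 bear another gene name, and 10 belong to a gene now typed as protein-coding, among them LINC00961 (SPAAR), LINC01420 (NBDY) and LINC00493 (SMIM26). The median distance from a member's start to the nearest protein-coding start was 33959 bp. In 25 members it was within 1 kb, and 20 of these lay on the opposite strand. Exons of another gene on the opposite strand overlapped 39 members, and 34 shared most of their bases with other transcripts of the same strand. The libraries were strand-specific, but the strand setting and the mode of counting are not given in the sources used here, so values of overlapping and antisense transcripts are uncertain.

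The 8 members with the most normalized reads in untreated cells held 58.1% of the members' sum there. Per kb of exon, LINC00657, now NORAD, an abundant cytoplasmic RNA that binds PUMILIO proteins, led with a mean of 1342 normalized reads per kb over the 12 libraries. It lies as a single exon of 5401 bases at chr20:36045618-36051018 on the minus strand. After it came LINC01389 at 351 per kb, LINC00265 at 328 and LINC01268 at 277, and then LINC01413, LINC01108, LINC00528 and LINC00963 between 254 and 185 per kb. LINC00657 alone took 30.6% of the members' sum in untreated, 28.1% in DAC, 29.0% in ATRA and 32.7% in DAC+ATRA cells.

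The members' sum was higher with DAC and with DAC+ATRA than in the other groups. It was 20305, 20591 and 20342 normalized reads in untreated libraries 1 to 3 and 26435, 26696 and 27146 in DAC libraries 4 to 6. In ATRA libraries 7 to 9 it was 21734, 21238 and 21105, and in DAC+ATRA libraries 10 to 12 it was 26752, 28374 and 27747. Every library with DAC lay above every library without it, and the ATRA libraries lay slightly above the untreated ones. Between 47 and 49 members had at most 3 reads in an untreated library and between 39 and 47 in an ATRA library, against 5 to 10 in a DAC library and 2 to 9 in a DAC+ATRA library. A member that is low without DAC passed the filter on the mean only through libraries with DAC. The same counts over all transcripts tested are not given, so these sums and counts are descriptions and show nothing particular to LINC RNAs. In bulk RNA, fewer cells that make a transcript and less of it per cell cannot be told apart.

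DAC raised 76 of the 212 members and lowered 18 against untreated cells. All 22355 transcripts with a mean of at least 5 were tested with limma on log2(normalized reads + 1) in a single fit of the 12 libraries. The threshold was a Benjamini-Hochberg adjusted p under 0.01. The members passed the same filter on the mean, but each is the most abundant transcript of its symbol. The 22355 also include less abundant transcripts of a symbol, so shares of members and of all transcripts are not fully alike. On this scale the fold change of a transcript with few reads is understated. Among all transcripts tested, 19.4% were higher and 9.68% lower with DAC. With values summed over all transcripts of a symbol, 3863 of 14480 symbols were higher and 1682 lower. The median log2 fold change was 0.46 over the members, 0.04 over all transcripts tested and 0.12 over the summed symbols. The raised members had a median log2 fold change of 2.72, with a range from 0.48 to 8.28, and the lowered ones a median of -1.12, with -1.92 as the largest fall.

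**Figure D1:**
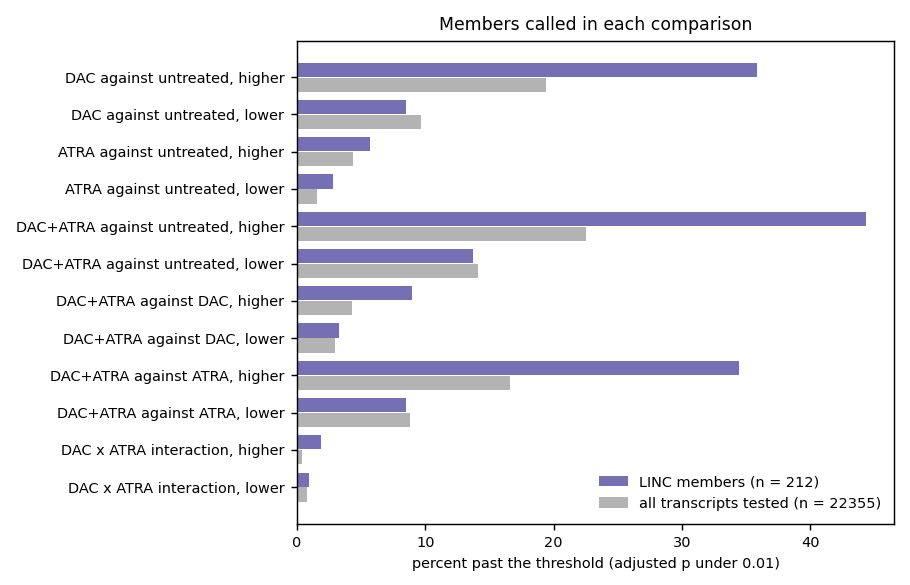
Percent of the 212 LINC members (purple) and of all 22355 transcripts tested (grey) past an adjusted p of 0.01 in each comparison and direction, with percent on the horizontal axis. The bars for higher with DAC read 35.8% of members and 19.4% of all transcripts.

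The largest rise with DAC was that of LINC01413, a transcript of 985 bases in 5 exons at chr15:57319138-57325038 on the plus strand. LINC00961, now SPAAR, rose from 0 reads. It encodes a small polypeptide of the lysosome that dampens mTORC1 activation by amino acids, and it lies at chr9:35909490-35911686 on the plus strand. LINC00261, known for its role beside FOXA2 in endoderm formation, rose from a low level and lies at chr20:22560553-22578642 on the minus strand. The promoters of these 3 are shown because they belong to members that moved together with an agent that acts on CpG methylation. Each runs from 250 bases before to 50 after the start, 5′ to 3′ on the gene's strand, taken from RefSeq on GRCh38.p14, with CG in capitals. They lie at chr15:57318888-57319187 (plus), chr9:35909240-35909539 (plus) and chr20:22578593-22578892 (minus).
LINC01413: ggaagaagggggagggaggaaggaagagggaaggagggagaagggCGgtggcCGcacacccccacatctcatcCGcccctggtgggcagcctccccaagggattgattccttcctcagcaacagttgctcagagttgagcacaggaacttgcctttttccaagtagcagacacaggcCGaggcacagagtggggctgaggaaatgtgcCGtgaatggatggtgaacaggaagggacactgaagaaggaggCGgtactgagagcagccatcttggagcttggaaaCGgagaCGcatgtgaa
LINC00961: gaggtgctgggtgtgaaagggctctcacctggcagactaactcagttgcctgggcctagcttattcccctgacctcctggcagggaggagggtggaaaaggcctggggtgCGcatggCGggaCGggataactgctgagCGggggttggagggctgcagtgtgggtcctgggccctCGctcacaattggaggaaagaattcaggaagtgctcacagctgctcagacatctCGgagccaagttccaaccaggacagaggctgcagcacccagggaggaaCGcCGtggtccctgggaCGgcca
LINC00261: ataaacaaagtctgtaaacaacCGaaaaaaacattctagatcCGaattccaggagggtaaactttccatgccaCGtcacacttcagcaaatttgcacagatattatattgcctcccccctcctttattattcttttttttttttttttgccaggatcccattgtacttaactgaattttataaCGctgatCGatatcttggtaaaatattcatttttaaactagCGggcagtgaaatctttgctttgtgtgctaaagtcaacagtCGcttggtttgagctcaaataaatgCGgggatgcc

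These windows hold 8, 9 and 8 CG. CG reads the same on both strands, and 96.0% of the 35116 RefSeq promoters hold at least 1, with a median of 14. No methylation was measured in these libraries, so the capitals mark letters and not methylated sites.

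LINC01413 had 0.919, 0.91 and 0 normalized reads in untreated libraries 1 to 3 and 445, 469 and 526 in DAC libraries 4 to 6. In ATRA libraries 7 to 9 it had 2.11, 0.91 and 0, and in DAC+ATRA libraries 10 to 12 it had 471, 572 and 518. It was thus at no more than 2 reads without DAC and above 400 with it in each library, so that the groups did not overlap. The DAC mean was at least 173-fold higher than 3 reads, and the log2 fold change was 8.28 ± 0.31 (SE, limma, Benjamini-Hochberg adjusted p = 5.35e-17). As LINC01413 passed the filter on the mean only through libraries with DAC, these values are descriptions. LINC00926, another member whose start lies 14413 bp away on the same strand and which was singled out for this position after its values were seen, had a log2 fold change of -0.31 with DAC (limma, Benjamini-Hochberg adjusted p = 0.235). Its source is uncertain, as 594 of its 2141 bases are not shared with another same-strand transcript.

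LINC00261 had 19.3, 16.4 and 23.1 normalized reads in untreated libraries and 1216, 2090 and 1699 in DAC libraries. With ATRA it had 18.0, 20.9 and 18.3, and with DAC+ATRA 193, 252 and 211. The DAC libraries were the highest, the DAC+ATRA libraries lay between them and the other 6, and the untreated and ATRA libraries overlapped. The log2 fold change with DAC was 6.32 ± 0.18 (SE, limma, Benjamini-Hochberg adjusted p = 8.63e-20). FOXA2, the endoderm transcription factor whose start lies 6813 bp away on the same strand, was at 0 in untreated and ATRA libraries. It had a mean of 40.9 ± 10.5 (SD, n = 3) normalized reads with DAC and 12.9 ± 3.38 with DAC+ATRA.

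LINC00961 had 0 reads in each untreated library, 59.5, 64.3 and 73.7 normalized reads in DAC libraries and at most 1 read in an ATRA library. With DAC+ATRA it had 66.0, 57.9 and 79.1. The DAC and DAC+ATRA libraries overlapped and lay apart from the others. The DAC mean was at least 23.8-fold higher than 3 reads, with a log2 fold change of 6.06 ± 0.37 (SE, limma, Benjamini-Hochberg adjusted p = 3.98e-13). As LINC00961 passed the filter on the mean only through libraries with DAC, these values are descriptions. LINC01287, at chr7:153411234-153413963 on the minus strand, had no read in the 6 libraries without DAC. It had 45.4, 110.1 and 101 normalized reads with DAC and 75, 93.7 and 91.4 with DAC+ATRA, a DAC mean at least 30.8-fold higher than 3 reads. LINC01529 also went from 0 reads to a mean of 50.9 ± 3.68 (SD, n = 3) with DAC, but only 117 of its 2167 bases are not shared with another same-strand transcript, so its source is uncertain.

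Fewer members fell with DAC, and their falls were smaller. LINC01355, a single-exon transcript at chr1:23281309-23286752 on the minus strand, had 301, 348 and 354 normalized reads in untreated libraries and 109, 85.7 and 73.7 with DAC. With ATRA it had 168, 176 and 274, and with DAC+ATRA 111, 83.2 and 84.0. All treated libraries lay below the untreated ones, and ATRA library 9 lay closest to them. The log2 fold change with DAC was -1.90 ± 0.18 (SE, limma, Benjamini-Hochberg adjusted p = 2.4e-09). HNRNPR, an RNA-binding protein gene whose start is 57584 bp away on the same strand, had a log2 fold change of -1.04 with DAC (limma, Benjamini-Hochberg adjusted p = 4.44e-05).

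LINC00173, which has been studied in granulocyte formation, had 68.0, 83.7 and 85.0 normalized reads in untreated libraries and 42.2, 23.4 and 14.9 with DAC. The DAC libraries lay below the untreated ones, with a log2 fold change of -1.64 ± 0.29 (SE, limma, Benjamini-Hochberg adjusted p = 5.03e-05). LINC01021, now PURPL, an RNA induced by p53, went from a mean of 126 ± 5.77 to 47.4 ± 1.46 (SD, n = 3), without overlap. LINC01004 and LINC00908 were the other 2 of the 5 largest falls, with log2 fold changes of -1.36 and -1.92. Another transcript of LINC01004, with a mean of 12.2, had a log2 fold change of 0.64 with DAC and did not pass. LINC01268, the fourth most abundant member per kb, fell as well, from a mean of 914 ± 24.9 to 543 ± 82.7 (SD, n = 3) normalized reads.

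A change from off to on was more frequent than the reverse. With DAC, 25 members went from off in untreated cells to on, against 3.08% of all transcripts tested, and with DAC+ATRA 28 did so, against 3.95%. With ATRA alone 2 members did, LINC00656 and LINC00462, against 0.273%. These counts depend on the limits: with off as at most 1 read they were 15, 18 and 1 for DAC, DAC+ATRA and ATRA, the last being LINC00462. With on as at least 20 normalized reads they were 13, 23 and 0, and with at least 5 they were 36, 37 and 3. Shares of all transcripts at these other limits are not given, so only the dependence on the limits is read from them. From on to off, no member went with DAC or with ATRA, where 0.0403% and 0.00895% of all transcripts did. These are counts of reads with no test, and the limma falls above include none that reached the off level. With DAC+ATRA 1 member went from on to off, LINC00908, against 0.125%. In all 4 groups 99 of the 212 members were on, against 11006 of all 22355 transcripts tested.

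From off in ATRA to on with DAC+ATRA went 25 members, against 3.01% of all transcripts tested, and 18 members went from off to on with DAC both without and with ATRA. The number of all transcripts that did both was not counted, so nothing is read from the 18. A member that is off without DAC passed the filter on the mean only through libraries with DAC. The changes from ATRA to DAC+ATRA are therefore no repeat of those from untreated to DAC. Of the 25 that were off in untreated cells, the most abundant after LINC01413, LINC00656, LINC01287 and LINC00961 were LINC01160, LINC01150, LINC00885 and LINC00624. LINC01160 had 2.76, 1.82 and 0 normalized reads in untreated libraries and 47.6, 66.2 and 43.8 with DAC, but only 210 of its 894 bases are not shared with another same-strand transcript, so its source is uncertain. LINC01150, beside PRR33 at a distance of 5120 bp, had 1 read in each untreated library and 64.9, 53.6 and 54.8 normalized reads with DAC. Both were on with DAC in every library. LINC00885, LINC00624, LINC01529 (described above), LINC00346 (now PRECSIT), LINC00689 and LINC00891 followed, with DAC means at least 10.6-fold to 18.4-fold higher than 3 reads.

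**Figure D2:**
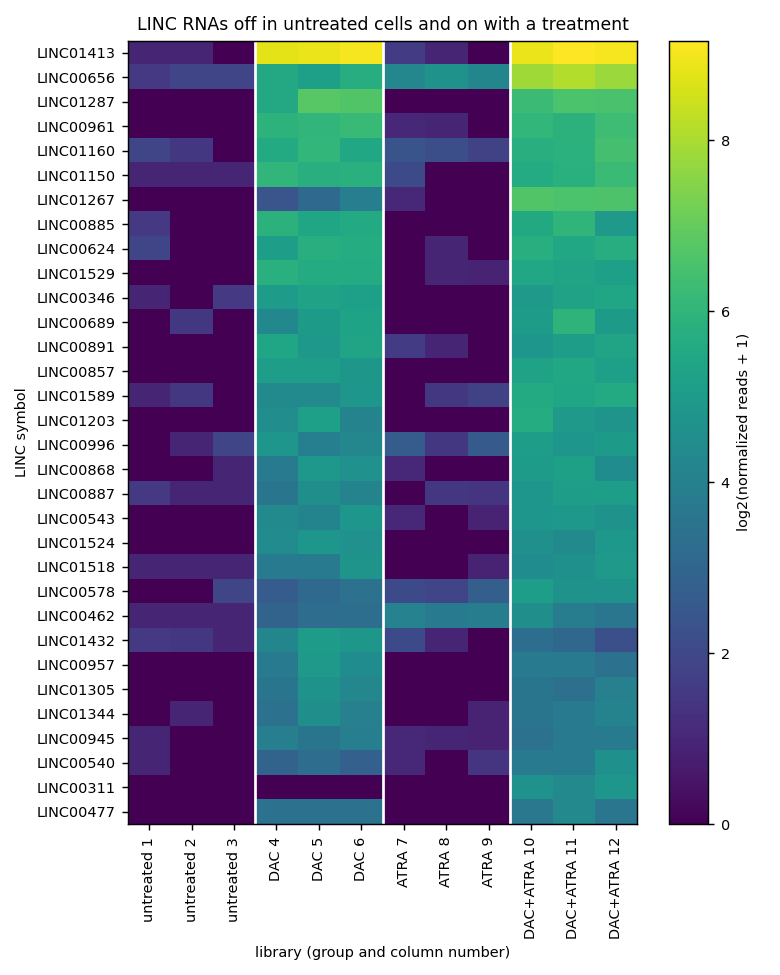
Each line is a member that was off in untreated libraries (at most 3 reads in each) and on (at least 10 normalized reads in each) with at least 1 treatment, and each column is a library, with color giving log2(normalized reads + 1). LINC00656 and LINC00462 are the 2 that are on in the ATRA libraries, and LINC00311 is seen in the DAC+ATRA libraries only.

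LINC00908 had 20.2, 20.9 and 16.6 normalized reads in untreated libraries, 5.4, 4.87 and 2.99 with DAC, and 13.7, 5.46 and 3.33 with ATRA. With DAC+ATRA it had 2.71, 2.11 and 3.71, at most 3 reads a library. Its transcript at chr18:76528720-76611330 (plus) is part of the gene LINC00683 in GENCODE 44, and the transcript selected for the symbol LINC00683 itself had 4.52, 1.05 and 2.47 with DAC+ATRA after 15.6, 12.7 and 8.31 untreated. Both were low with the combination, where their log2 fold changes were -2.41 ± 0.44 and -1.92 ± 0.44 (SE). ZNF516, whose start lies 33478 bp from that of LINC00908 on the opposite strand, had a log2 fold change of 1.19 with DAC (limma, Benjamini-Hochberg adjusted p = 7.49e-09).

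In windows of 300 bases at the transcripts' own starts, 250 before and 50 after on hg38, the 25 members that went from off to on with DAC had a median of 8 CG. The 98 of 99 members on in every group that could be placed also had a median of 8, as did all 207 placed members, against 16 in all transcripts tested. At least 10 CG were found in 8 of the 25 (32%) and in 44 of the 98 (44.9%). Over all transcripts tested the medians were 13 for those that went from off to on with DAC and 21 for those on in every group, and 59.9% and 69.1% had at least 10. The range within the 25 members was 1 to 26.

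The change with DAC was also measured against ATRA, in libraries that the comparison with untreated cells does not use. DAC+ATRA raised 73 members and lowered 18 against ATRA, where 16.6% and 8.81% of all transcripts tested were higher and lower. Of the members raised by DAC without ATRA, 61 were also raised by it with ATRA, which is 80.3% of the 76 and 83.6% of the 73. Over all transcripts tested 3038 were raised both times, or 70.1% and 82.1% of the lists. For lowered members the number was 11, or 61.1% of each list of 18, against 53.0% and 58.3% of the lists over all transcripts. In limma, edgeR and DESeq2 0 members went opposite ways, also at an unadjusted p under 0.05. Over all 22355 transcripts, 7 raised and 3 lowered by DAC without ATRA went the opposite way with ATRA in limma. Members that are low without DAC passed the filter through these same libraries. Over the 212 members the log2 fold changes of the 2 comparisons had a Pearson correlation of 0.90, and over all 22355 transcripts it was 0.88. Members are not independent replicates, so these correlations are descriptions.

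**Figure D3:**
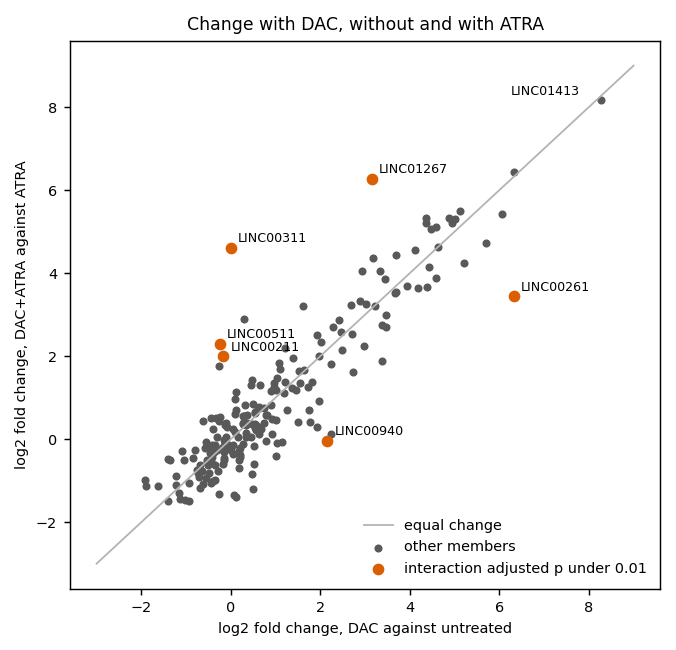
Log2 fold change of each of the 212 members with DAC against untreated (horizontal) and with DAC+ATRA against ATRA (vertical), where the line marks equal change and orange points passed the threshold for an interaction. Most members lie along the line up to LINC01413 at 8.28 and 8.16, and LINC00261 lies below it at 6.32 and 3.45.

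ATRA alone changed fewer members. It raised 12 and lowered 6 against untreated cells, while 4.33% and 1.54% of all transcripts tested were higher and lower. With values summed per symbol, 896 of 14480 symbols were higher and 389 lower, so the members' rises are not read as more frequent. The median log2 fold change was 0 over the members and -0.00 over all transcripts tested. The 12 rises ranged from 0.60 to 3.44 and the 6 falls from -0.65 to -1.34.

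LINC01154, a transcript of 454 bases at chr12:54428303-54429403 on the plus strand, had the largest rise. It had 0.919, 1.82 and 5.54 normalized reads in untreated libraries, 40.1, 31.9 and 32.5 with ATRA, 2.16, 2.92 and 6.97 with DAC and 13.6, 17.9 and 12.4 with DAC+ATRA. The ATRA libraries were the highest and the untreated and DAC libraries overlapped at few reads. The log2 fold change with ATRA was 3.44 ± 0.43 (SE, limma, Benjamini-Hochberg adjusted p = 1.36e-06). As LINC01154 passed the filter on the mean only through libraries with ATRA, these values are descriptions.

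LINC00656 and LINC00462 went from off to on with ATRA. LINC00656, at chr20:23125068-23132631 on the minus strand, had 1.84, 2.73 and 2.77 normalized reads in untreated libraries and 18.0, 24.6 and 17.5 with ATRA. With DAC it had 45.4, 35.1 and 50.8, and with DAC+ATRA 228, 277 and 220. The groups were ordered untreated, ATRA, DAC and DAC+ATRA with no overlap between neighbours. The mean was at least 7.22-fold higher than 3 reads with ATRA, 15.8-fold with DAC and 87.2-fold with both, and the log2 fold change with ATRA was 2.60 ± 0.24 (SE, limma, Benjamini-Hochberg adjusted p = 5.97e-09). As LINC00656 passed the filter on the mean only through treated libraries, these values are descriptions. Its interaction was -0.16 ± 0.34 (SE, limma, Benjamini-Hochberg adjusted p = 0.902), so a departure from the sum of the single changes was not detected. CD93, a surface receptor of monocytes whose start is 46307 bp away on the same strand, had means of 31048 in untreated, 42816 in DAC, 91064 in ATRA and 88225 in DAC+ATRA cells.

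LINC00462, at chr13:48576974-48578088 on the minus strand, had 1 read in each untreated library and 15.8, 12.7 and 13.3 normalized reads with ATRA. With DAC it had 6.49, 8.77 and 8.96, and with DAC+ATRA 22.6, 13.7 and 11.1. All treated libraries lay above the untreated ones, and the ATRA and DAC+ATRA libraries overlapped. RCBTB2, whose start is 44832 bp away on the same strand, had means of 36.4, 171, 127 and 134 normalized reads in untreated, DAC, ATRA and DAC+ATRA cells, and was likewise higher in each treatment.

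LINC01270 had 10.1, 17.3 and 12.9 normalized reads in untreated libraries and 52.8, 38.2 and 52.4 with ATRA, with no overlap. Its nearest protein-coding start is that of CEBPB, a transcription factor of myeloid maturation, at 101890 bp on the same strand, which had a log2 fold change of 1.88 with ATRA (limma, Benjamini-Hochberg adjusted p = 3.3e-06). Since 1057 bases of LINC01270 lie under exons of the opposite strand, its value is uncertain. Another transcript of LINC01270, with a mean of 7.24, had a log2 fold change of 0.79 with ATRA and did not pass. LINC01181 completed the 5 largest rises, with 1.84, 5.46 and 5.54 normalized reads untreated and 26.4, 9.1 and 25 with ATRA. Its call was lost without untreated library 1, ATRA library 7 or ATRA library 9, with limma's Benjamini-Hochberg adjusted p up to 0.017.

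Of the members that ATRA lowered, LINC00958 went the other way with DAC in its selected transcript. It had 23.9, 36.4 and 34.2 normalized reads in untreated libraries and 14.8, 16.4 and 11.7 with ATRA, against 245, 237 and 226 with DAC and 152, 146 and 154 with DAC+ATRA. None of the 4 groups overlapped. The log2 fold change was -1.08 ± 0.19 with ATRA (SE, limma, Benjamini-Hochberg adjusted p = 0.000163) and 2.89 ± 0.19 with DAC (limma, Benjamini-Hochberg adjusted p = 1.55e-12). Another, less abundant transcript of LINC00958, with a mean of 28.4, was higher with DAC too, with a log2 fold change of 2.57. With ATRA its log2 fold change was -0.08 and did not pass, so the fall with ATRA was seen in the selected transcript only. RASSF10, a gene of the Ras association family whose start lies 19769 bp away on the opposite strand, had means of 0.306, 68.1, 0 and 22.5 normalized reads in untreated, DAC, ATRA and DAC+ATRA cells.

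LINC01108, an abundant member, had 906, 933 and 992 normalized reads in untreated libraries and 622, 582 and 604 with ATRA. With DAC it had 1266, 934 and 1077, and with DAC+ATRA 428, 464 and 491. The DAC libraries overlapped the untreated ones, and both groups with ATRA lay below. The log2 fold change was -0.65 ± 0.11 with ATRA and -1.23 ± 0.11 with DAC+ATRA against DAC (SE, limma, Benjamini-Hochberg adjusted p = 0.000221 and 9.33e-09).

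**Figure D4:**
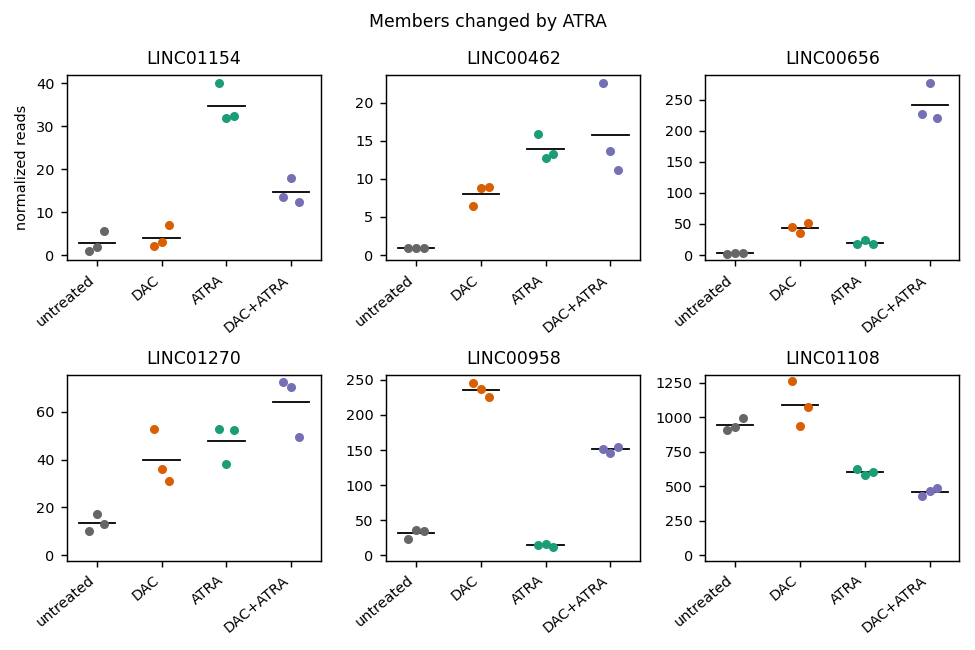
Normalized reads in each library of the 4 groups for 6 members past the threshold with ATRA, with the group mean as a line. LINC01154 was highest with ATRA, LINC00656 with DAC+ATRA and LINC00958 with DAC.

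The other 4 falls with ATRA were each lost when a single library was left out. LINC00051 fell from 28.5, 25.5 and 25.9 to 10.6, 10 and 9.16 normalized reads without overlap, and its call was lost without any single untreated or ATRA library, with limma's Benjamini-Hochberg adjusted p up to 0.0238. That of LINC01355 was lost without any single untreated library or ATRA library 7 or 8 (limma, Benjamini-Hochberg adjusted p up to 0.0599). That of LINC00211 was lost without any single untreated or DAC+ATRA library, DAC library 6 or ATRA library 7 or 8 (limma, Benjamini-Hochberg adjusted p up to 0.0739). That of LINC01021 was kept only without ATRA library 9 or DAC+ATRA library 11, and was otherwise lost (limma, Benjamini-Hochberg adjusted p up to 0.106). Without any single untreated library or ATRA library 8 the number of lowered members was 2, and without ATRA library 7 it was 3. Without untreated library 1 the total was 11.

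Against DAC alone, DAC+ATRA raised 19 members and lowered 7, where 4.3% and 2.97% of all transcripts tested were higher and lower. These libraries are separate from those of ATRA against untreated. Of the rises with ATRA, 6 were found both without and with DAC, which is 50% of the 12 and 31.6% of the 19, against 54.0% and 54.4% of the lists over all transcripts tested. Of the falls 1 was, or 16.7% of 6 and 14.3% of 7, against 50% and 25.9% over all transcripts. LINC00211 fell with ATRA alone and rose with ATRA on top of DAC in the limma fit, while edgeR and DESeq2 called opposite changes in 0 members and at an unadjusted p under 0.05 in 3. Over all transcripts tested, 5 raised and 1 lowered by ATRA without DAC went the opposite way with DAC in limma. The log2 fold changes of the 2 comparisons had a Pearson correlation of 0.36 over the members and 0.50 over all transcripts. The number lowered against DAC was 3 without DAC library 6, 4 without DAC+ATRA library 10 or 12 and 11 without ATRA library 9, and the total was 17 without DAC+ATRA library 10 or 12.

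The combination raised 94 members and lowered 29 against untreated cells, while 22.5% and 14.1% of all transcripts tested were higher and lower. With values summed per symbol, 4234 of 14480 symbols were higher and 2377 lower. The 3 comparisons with untreated cells share their control libraries, so no overlap between them is given. LINC01413 led the rises with the combination, at least 188-fold higher than 3 reads, and LINC01267, LINC01287, LINC00656 and LINC00961 followed with log2 fold changes between 6.62 and 6.09. LINC01311 was among the largest falls, with 142, 140.2 and 144 normalized reads untreated and 31.6, 50.5 and 34.6 with DAC+ATRA, without overlap.

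In 6 members the limma fit called a departure of the change with both agents from the sum of the single changes. The interaction, which is 0 where the log2 changes add up, was above 0 in 4 members and below 0 in 2, against 0.403% and 0.787% of all transcripts tested. Those above 0 were LINC00311, LINC01267, LINC00511 and LINC00211, and those below 0 were LINC00261 and LINC00940. LINC00311 and LINC01267 passed the filter on the mean only through the DAC+ATRA libraries. The count of 4 above 0 is therefore a description and nothing is read from it against the 0.403%. Only LINC00211 and LINC00261 passed with limma, edgeR and DESeq2. The balance changed with the tool: edgeR called 2 above and 2 below 0, of which 3 were among the 6, and DESeq2 1 above and 3 below, of which 2 were. Over all transcripts tested it changed too: edgeR called 51 above and 183 below 0 and DESeq2 69 and 229, against 90 and 176 in limma. The change of balance is therefore not read as a trait of the members. DESeq2 gave no adjusted p for LINC00311, LINC00511 and LINC00940. Those above 0 numbered 2 without untreated library 2 or DAC+ATRA library 10 or 11, and the total was 3 without untreated library 2 or DAC+ATRA library 10. Those below 0 numbered 1 without untreated library 2 or 3, any single DAC library, ATRA library 7 or 8 or DAC+ATRA library 10 or 12. Of all transcripts tested, 90 lay above and 176 below 0 in the full fit, against 134 and 399 without ATRA library 9. The promoters of LINC00311 and LINC01267 are shown because these had the largest interactions above 0. They are from RefSeq on GRCh38.p14 at chr16:85282708-85283007 (plus) and chr3:14352519-14352818 (minus), 5′ to 3′ on the gene's strand, with CG in capitals.
LINC00311: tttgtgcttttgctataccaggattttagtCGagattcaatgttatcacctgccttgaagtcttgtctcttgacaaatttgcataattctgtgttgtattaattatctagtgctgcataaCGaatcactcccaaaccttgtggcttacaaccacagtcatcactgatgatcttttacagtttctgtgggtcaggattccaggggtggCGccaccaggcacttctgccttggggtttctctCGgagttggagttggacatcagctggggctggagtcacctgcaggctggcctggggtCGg
LINC01267: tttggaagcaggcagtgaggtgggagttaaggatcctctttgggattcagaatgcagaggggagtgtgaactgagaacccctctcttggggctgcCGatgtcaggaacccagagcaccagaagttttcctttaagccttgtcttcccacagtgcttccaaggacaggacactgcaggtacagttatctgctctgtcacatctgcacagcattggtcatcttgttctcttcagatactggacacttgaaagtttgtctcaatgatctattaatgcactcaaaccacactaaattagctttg

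They hold 5 and 1 CG.

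LINC00311, a transcript of 2 exons and 1566 bases at chr16:85282958-85285963 on the plus strand, had no read in any of the 9 other libraries and 25.3, 18.9 and 27.2 normalized reads in DAC+ATRA libraries 10 to 12, from 28, 18 and 22 reads. It was the only member off in untreated, DAC and ATRA libraries and on with DAC+ATRA, a pattern of 0.0939% of all transcripts tested. The mean was at least 8.6-fold higher than 3 reads in an untreated library. The fitted interaction was 4.62 ± 0.63 (SE, limma). As LINC00311 passed the filter on the mean only through the DAC+ATRA libraries, the groups had to differ, and this value is a description. It did not pass with a pseudocount of 0.1 or with edgeR (Benjamini-Hochberg adjusted p = 0.135 and 1.00), and DESeq2 gave no adjusted p. GSE1, its nearest protein-coding gene at 113433 bp, had means of 48.9, 120, 72.8 and 146 normalized reads in untreated, DAC, ATRA and DAC+ATRA cells.

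LINC01267, at chr3:14348451-14352568 on the minus strand, had no read in untreated libraries, 4.32, 7.79 and 13.9 normalized reads with DAC, at most 1 read with ATRA and 101, 94.7 and 96.4 with DAC+ATRA. The DAC+ATRA libraries lay far above the DAC libraries, and these above the rest. With DAC alone it was past the threshold too, with a log2 fold change of 3.15 (limma, Benjamini-Hochberg adjusted p = 2.63e-06). The mean with both agents was at least 35.2-fold higher than 3 reads, and the fitted interaction was 3.12 ± 0.64 (SE, limma, Benjamini-Hochberg adjusted p = 0.00472). LINC01267 too passed the filter only through the DAC+ATRA libraries, so these p-values support nothing. The interaction did not pass with a pseudocount of 0.1, edgeR or DESeq2 (Benjamini-Hochberg adjusted p = 0.527, 0.932 and 0.583). It was also lost without untreated library 2, DAC library 4 or 5, ATRA library 8 or any single DAC+ATRA library, with limma's Benjamini-Hochberg adjusted p up to 0.0198. The log2 fold change from DAC alone was 3.47 ± 0.45 (SE), likewise a description.

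LINC00211, now PIRAT1, an RNA of myeloid cells induced by the transcription factor PU.1, had 31.2, 39.1 and 29.6 normalized reads in untreated libraries and 37.8, 22.4 and 29.9 with DAC. With ATRA it had 11.6, 16.4 and 22.5, and with DAC+ATRA 71.4, 65.3 and 66.7. The DAC and untreated libraries overlapped, and the DAC+ATRA libraries were the highest. The interaction was 2.16 ± 0.35 (SE, limma, Benjamini-Hochberg adjusted p = 0.000376), and edgeR and DESeq2 also called it. Of its 1923 bases 948 are not shared with another same-strand transcript, so its source is uncertain.

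LINC00511, which is studied in several carcinomas, had 5.51, 13.7 and 10.2 normalized reads in untreated libraries and 7.57, 9.74 and 5.98 with DAC. With ATRA it had 8.45, 7.28 and 4.16, and with DAC+ATRA 37.1, 38.9 and 30.9. Only the DAC+ATRA libraries stood apart. Another, less abundant transcript of LINC00511 was higher with DAC as well as with DAC+ATRA, with log2 fold changes of 1.82 and 2.46. The interaction was 2.55 ± 0.50 (SE, limma, Benjamini-Hochberg adjusted p = 0.00325) and was lost without untreated library 2 or 3, DAC library 6 or DAC+ATRA library 10 or 11, with limma's Benjamini-Hochberg adjusted p up to 0.0175.

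For LINC00261, whose values are given above, the interaction was -2.87 ± 0.26 (SE, limma, Benjamini-Hochberg adjusted p = 1.12e-07). Its level with DAC+ATRA fell below that with DAC by a log2 fold change of -2.90 ± 0.18 (SE, limma, Benjamini-Hochberg adjusted p = 6.22e-12), and edgeR and DESeq2 also called the interaction. FOXA2 beside it had an interaction of -1.59 that did not pass (limma, Benjamini-Hochberg adjusted p = 0.199).

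LINC00940 had 7.35, 4.55 and 4.62 normalized reads in untreated libraries, 30.3, 31.2 and 21.9 with DAC, 13.7, 14.6 and 9.99 with ATRA and 8.14, 20.0 and 11.1 with DAC+ATRA. The DAC libraries were the highest and the ATRA and DAC+ATRA libraries overlapped. The interaction of -2.19 ± 0.48 was just past the threshold (SE, limma, Benjamini-Hochberg adjusted p = 0.00983). It was kept only without untreated library 1, ATRA library 9 or DAC+ATRA library 11, with limma's Benjamini-Hochberg adjusted p up to 0.0448 without another library. With edgeR and with a pseudocount of 0.1 the adjusted p was 0.0135 and 0.0164 (Benjamini-Hochberg).

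**Figure D5:**
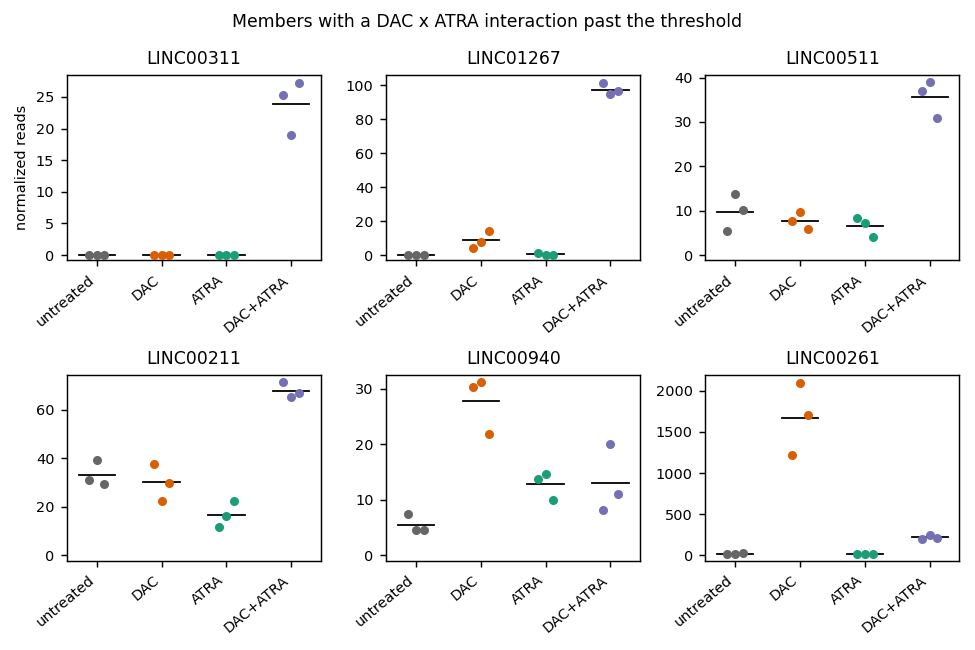
Normalized reads in each library of the 4 groups for the 6 members with an interaction past the threshold, with the group mean as a line. LINC00311 has reads in the DAC+ATRA libraries only, and LINC00261 is highest in the DAC libraries.

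The members whose log2 values over the 12 libraries were most like those of LINC00311 were LINC00511, LINC01513 and LINC00408, with Pearson correlations of 0.92, 0.92 and 0.89. For LINC01267 they were LINC01226, LINC00877 and LINC01504 (0.97, 0.95 and 0.95), and for LINC00261 they were LINC00957, LINC01262 and LINC01137 (0.96, 0.96 and 0.95). The 12 libraries form 4 groups, so these correlations mainly compare group means.

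Of the 31 members named for their changes or their off and on states, 19 had a nearest protein-coding gene that was tested. With DAC, of 10 such neighbours of raised members 6 were higher (5 in DESeq2) and 0 lower in limma. In edgeR and DESeq2 0 were lower too, and 2 were lower at an unadjusted p under 0.05. Of 4 neighbours of lowered members 2 were higher (1 in DESeq2) and 1 lower, against 19.4% and 9.68% of all transcripts tested. With ATRA, of 4 neighbours of raised members 3 were higher and 0 lower in limma, edgeR and DESeq2 and at an unadjusted p under 0.05. Of 4 neighbours of lowered members 0 were higher and 0 lower in limma, edgeR and DESeq2, and 2 were lower at an unadjusted p under 0.05, against 4.33% and 1.54% of all transcripts. With DAC+ATRA, of 13 neighbours of raised members 6 were higher and 1 lower. The 5 lowered members had 4 genes as neighbours, and the neighbour was higher in 2 and lower in 2, against 22.5% and 14.1% of all transcripts. Nothing is read from these counts, since the neighbours are few and their members were named for their changes. ITGA5, an integrin gene 9037 bp from LINC01154 on the opposite strand, had a log2 fold change of 0.49 with ATRA (limma, Benjamini-Hochberg adjusted p = 0.429), while LINC01154 rose. LINC01128 and LINC00115, singled out after their values were seen, start 59 bp apart on opposite strands, and with DAC their log2 fold changes were 0.57 and -0.74 (limma, Benjamini-Hochberg adjusted p = 0.000239 and 0.00206).

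For 43 members more than 1 transcript had a mean of at least 5. Each was compared with the next most abundant transcript of its symbol only, and further transcripts were not checked. Of these members, 16 were called with DAC, and the next most abundant transcript was called in the same direction in 9 and not called in 7. With ATRA the numbers were 8, 1 and 7, and with DAC+ATRA 24, 14 and 10. In limma, edgeR and DESeq2 0 of these next transcripts were called in the opposite direction. At an unadjusted p under 0.05 this number was 0 in each but for 1 in edgeR with DAC+ATRA. Of the 27 members not called with DAC, 9 had a next most abundant transcript that was called in limma, and 5 of 28 in DESeq2. With ATRA the number was 3 of 35 in limma, 1 in edgeR and 0 in DESeq2 (9 at an unadjusted p under 0.05), and with DAC+ATRA 5 of 19 in limma. Of all transcripts tested, 19.4% were higher and 9.68% lower with DAC in limma. With ATRA these shares were 4.33% and 1.54%, and with DAC+ATRA 22.5% and 14.1%, so nothing is read from the counts of other transcripts.

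Of 22 LINC symbols that have been studied for their function, 16 were members. With DAC, 2 were higher (LINC00261 and LINC00961) and 2 lower (LINC00173 and LINC01578), against 19.4% and 9.68% of all transcripts tested. LINC01578, now CHASERR, a regulator of its neighbour CHD2, went from 45.2 ± 8.17 to 22.1 ± 7.93 normalized reads (SD, n = 3), and its call was lost without untreated library 2 or DAC library 6 (limma, Benjamini-Hochberg adjusted p = 0.0167 and 0.0224). Another transcript of LINC01578, with a mean of 24.9, had a log2 fold change of -0.28 with DAC and did not pass. With ATRA 0 of the 16 passed in limma, edgeR or DESeq2, where 4.33% of all transcripts tested were higher and 1.54% lower in limma. In each of these tools 1 of the 16 had an unadjusted p under 0.05. With DAC+ATRA 5 were higher, among them LINC00657 and LINC00467, and 1 was lower, against 22.5% and 14.1% of all transcripts tested. LINC00657 had 6546, 6185 and 5987 normalized reads in untreated libraries and 8332, 9328 and 9458 with DAC+ATRA, without overlap, a log2 fold change of 0.53 ± 0.09 (SE, limma, Benjamini-Hochberg adjusted p = 1.63e-05). The selected transcripts of LINC00152 (CYTOR) and LINC00662, both studied in tumours, had means of 28 and 67.3 over the 12 libraries and did not pass in any of the 6 comparisons. Another transcript of LINC00662, with a mean of 17.5, was lower with DAC and with DAC+ATRA, with log2 fold changes of -1.99 and -1.12. The selected transcripts of LINC00963 and LINC00528, at means of 1772 and 507, did not pass either. Another transcript of LINC00963, with a mean of 55.8, was higher with DAC and with DAC+ATRA, with log2 fold changes of 1.23 and 1.18.

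Of 15 genes on which the agents act or which respond to them, 11 were tested. With DAC 5 were higher (3 in edgeR) and 2 lower, against 19.4% and 9.68% of all transcripts tested. With DAC+ATRA 6 were higher and 2 lower, against 22.5% and 14.1%. With ATRA 4 were higher and 0 lower in limma, edgeR and DESeq2, and 1 was lower at an unadjusted p under 0.05. Of all transcripts tested, 4.33% were higher and 1.54% lower with ATRA in limma. DHRS3, a retinoid enzyme gene, had means of 385 in untreated, 429 in DAC, 4664 in ATRA and 5417 in DAC+ATRA cells. CYP26A1, which clears retinoic acid, was at 0.308, 0.649, 3.91 and 519 in the same order. DNMT1, the target of DAC, was at 163, 105, 171 and 73.6.

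Of 13 myelomonocytic markers 11 were tested, and MPO was the most abundant, with means of 52120 in untreated, 26664 in DAC, 33033 in ATRA and 14973 in DAC+ATRA cells. The markers summed to 65935, 50226, 55385 and 40261, while CSF2RA was at 0 and CD14 at no more than 1.59. This sum does not stand for each marker: in the same order ITGAM had means of 202, 856, 1002 and 2725, and LYZ of 164, 806, 179 and 1097. With DAC 5 were higher and 1 lower, with ATRA 3 and 1, and with DAC+ATRA 6 and 1, and the 1 lower was MPO each time. Of all transcripts tested, 19.4% were higher and 9.68% lower with DAC. With ATRA these shares were 4.33% and 1.54%, and with DAC+ATRA 22.5% and 14.1%. The T cell markers summed to 5.52, 352, 5.92 and 144, nearly all of it CD2, with CD3D, CD3E and CD8A at no more than 1.72, and CD2 alone of the 4 was tested and higher with DAC and with DAC+ATRA. The B cell markers summed to 510, 902, 647 and 1714, with MS4A1 at no more than 1.31. PAX5 was the most abundant in untreated and ATRA cells and CD79A in the others: PAX5 had means of 373, 376, 328 and 366 and did not pass in a comparison with untreated cells, and CD79A had 131, 513, 314 and 1336 and was higher in each. The fibroblast markers summed to 18.4, 229, 47.1 and 137, mostly COL1A1, with DCN at 0. Epithelial markers summed to at most 5.66, and erythroid markers were at 0 in all groups. The part of these changes in those of the LINC members was not tested.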

How the data were processed

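RNA depleted of ribosomal RNA was sequenced from 12 U937 libraries with strand-specific paired ends. The deposited signal values are read counts per transcript that the authors divided by a size factor per library. The submitters' processing notes name FastQC, STAR, HTSeq, DESeq2 and hg38, and versions, counting mode and strand setting are not given in the sources used here. The smallest step of each column gave the value of 1 read, and 100% of the values were whole within 0.05 of a read. Columns show the treatment and a running number only, so groups were taken from the names and libraries were not paired.

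All 22355 transcripts with a mean of at least 5 were fitted with limma 3.58.1 in R 4.3.3 on log2(value + 1), with no covariate and Benjamini-Hochberg adjustment over all of them. On the recovered reads edgeR 4.0.16 called 6829, 1317 and 8334 transcripts with DAC, ATRA and DAC+ATRA and DESeq2 1.42.0 called 5737, 1211 and 7126, against 6498, 1313 and 8185 with limma. The other steps used Python 3.11.15 with numpy 2.4.6, pandas 2.3.3, scipy 1.17.1 and matplotlib 3.10.9. The fits were tested on simulated data. Other pseudocounts, filters, scalings, thresholds, limits for off and on, sums per symbol, fits of only the groups compared and omission of each library were tried.

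The members and lists were chosen with earlier results of these data known. Named were the 8 members highest per kb and the 3 on either side of the threshold. For each treatment against untreated and for the interaction, the 5 largest and 5 smallest changes past the threshold with groups that did not overlap were named. Up to 12 members per off and on pattern, the studied symbols, the nearest protein-coding genes and the 3 members most like each of the 3 largest interactions were added. For the interaction, apart means that the DAC+ATRA libraries do not overlap at least 1 single-agent group, which was set after the values were seen. Chosen after the values were seen were also the windows at transcript starts, the pairs of members, the counts of other transcripts and of neighbours, the printed promoters and the figure panels. RefSeq promoters matched 162 of the 212 members, too few to compare sets, so windows on hg38 were used for that.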

Additional observations from a re-analysis of the deposited data

Results flagged for a closer look

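In 6 members the change with DAC differed between cells without and with ATRA by the interaction term of the limma fit. It was 4.62 for LINC00311, 3.12 for LINC01267, 2.55 for LINC00511 and 2.16 for LINC00211 on the log2 scale. It was -2.19 for LINC00940 and -2.87 for LINC00261. LINC00311 and LINC01267 passed the filter on the mean only through the DAC+ATRA libraries, so their values are descriptions.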

How the results depend on the processing

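No paired analysis was possible because the columns carry only running numbers 1 to 12, and the fit with a replicate block was not run. No named result reversed. For these counts the cause of a move was not tested. With a threshold of 0.05, 20 members were higher with ATRA and 28 changed in all. With that threshold 16 were lower with DAC+ATRA against DAC (43 in all), 32 were lower against ATRA, and 6 interactions were below 0 (11 in all). A pseudocount of 0.1 gave 12 members higher and 3 lower with ATRA, and 2 interactions above and 1 below 0 (3 in all), and a pseudocount of 5 gave 5 above and 4 below 0. Over all 22355 transcripts a pseudocount of 0.1 gave 911 higher and 305 lower with ATRA and 42 interactions above and 144 below 0. A pseudocount of 5 gave 178 above and 219 below there. A fit of only the groups compared gave 10 higher and 2 lower with ATRA, against 748 and 268 of all 22355 transcripts. Values summed per symbol gave 18 higher and 12 lower with DAC+ATRA against DAC and 5 interactions above and 4 below 0. Of all 14480 summed symbols 858 were higher and 733 lower, and 107 interactions lay above and 211 below 0. edgeR gave 2 interactions above and 2 below 0, and DESeq2 gave 1 above and 3 below, so that with DESeq2 more lay below than above. Over all transcripts tested more lay below than above 0 with limma, edgeR and DESeq2. With off as at most 1 read, the combination turned 18 members from off to on, DAC alone 15 and ATRA alone 1. With on as at least 20, 13 did with DAC and 0 with ATRA. Shares of all transcripts at these limits and at the threshold of 0.05 are not given, so nothing particular to the members is read from them. A mean of at least 2 would select 280 symbols and of at least 10, 160.

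Leaving out each library in turn gave 71 to 79 members higher and 12 to 21 lower with DAC. With ATRA it gave 9 to 14 higher and 2 to 6 lower (11 to 19 in all), and with DAC+ATRA 80 to 95 and 22 to 31. Against DAC it gave 13 to 20 higher and 3 to 11 lower (17 to 31 in all), and against ATRA 64 to 74 and 13 to 19. Interactions above 0 numbered 2 to 5 and below 0 1 to 3 (3 to 8 in all). The counts over all 22355 transcripts moved too. With ATRA they ran from 1015 without untreated library 2 to 1534 without ATRA library 9. For the interaction they ran from 185 without DAC+ATRA library 10 to 533 without ATRA library 9. Of the 94, 18 and 123 members that limma called with DAC, ATRA and DAC+ATRA, edgeR also called 93, 17 and 116 and DESeq2 88, 17 and 105. Members with few reads are limited by depth.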
